A study of Mus musculus with 8 samples.

Results

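Spliceosome and hnRNP genes were defined as every probe, control spots aside, whose gene name in the array files begins with Srsf or Sfrs and a number, or with Hnrnp, Snrp, Sf3a, Sf3b or U2af. The rule took 93 of 39429 probes and 54 of 31751 genes, and 52 of these genes were among the 16151 genes that could be tested. It used names alone and no measured value. The expression arrays were made from C10, an established mouse pre-B cell line of HAFTL origin in which the transcription factor C/EBPα can be switched on. The 4 groups were C10 cells with a Tet2 short hairpin RNA after 24 h of induction and at 0 h, and C10 cells with a control short hairpin RNA after 24 h and at 0 h. Induction added estradiol at 100 nM and the cytokines M-CSF and IL-3, at 10 ng/ml each, to the puromycin medium in which all groups grew. Each group had 2 arrays, which the study design names technical duplicates, so p-values reflect how far duplicates lie apart, and error between cultures was not measured. The labels do not say whether each line was 1 clone.

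Splicing removes introns from newly made messenger RNA. The spliceosome that does so is built from small nuclear RNAs, each carrying a ring of Sm proteins and its own specific proteins. U1 recognises the start of an intron, U2AF the end, and U2, held by the SF3a and SF3b complexes, the branch point. SR proteins bind exons and mostly promote the use of nearby splice sites. The hnRNP proteins coat the nascent RNA, and many of them repress splice sites or act later in export, stability and translation.

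The arrays held 43020 probe spots each, of which 47.4% to 55.6% were well above background, and duplicates correlated across genes with r from 0.992 to 0.994. Values are log2 signals relative to the array's 75th percentile, so a step of 1 is a 2-fold change and levels of different genes are not comparable. Tet2, the gene named by the hairpin, was at 92.8% of control at 0 h (adjusted p = 0.53 in limma) and at 100.4% at 24 h (adjusted p = 0.98). The line is therefore called the Tet2kd-labelled line, and directions between the lines rest on that label. All 12 pre-B markers were well above background in every group. Their summed signal, in multiples of the 75th percentile, was 382 to 401 at 24 h against 512 to 580 at 0 h in the Tet2kd-labelled line, and 275 to 301 at 24 h against 543 to 578 at 0 h in control cells. The sum of 8 macrophage markers was 976 to 1062 at 24 h against 5.69 to 6.05 at 0 h in the Tet2kd-labelled line, and 996 to 1058 at 24 h against 6.12 to 6.57 at 0 h in control cells. The ninth, Adgre1, was not well above background on both arrays of any group. Of 5 markers each of T cells, erythroid cells and fibroblasts, 1 per list was above background in at least 1 group (Cd3e, Hba-a1 and Col1a2). The part of this shift in cell state in the changes of the splicing genes was not tested, and fewer cells of a type cannot be told apart from less RNA per cell.

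The first comparison asked how the splicing genes changed over 24 h of induction. Most of them fell, in both lines, by a moderate amount. In the Tet2kd-labelled line 45 of 52 genes had an adjusted p under 0.05 (limma, Benjamini-Hochberg over all genes) and a lower level at 24 h, against 32% of all genes tested. In control cells 41 of 52 did, against 31.1% of all genes. Higher levels with such a p were found for 2 members in the Tet2kd-labelled line, against 36.2% of all genes, and for 1 in control cells, against 30.7%. The median level at 24 h was 56.7% of that at 0 h in the Tet2kd-labelled line and 59.5% in control cells, median log2 changes of -0.82 and -0.75. The median over all genes tested was 0.14 in the Tet2kd-labelled line and -0.00 in control cells. At least 2-fold lower, with the same adjusted p, were 19 genes in the Tet2kd-labelled line (background 15.4%) and 11 in control cells (background 13.1%). A total of 40 genes fell in both lines at the adjusted p alone, and the share of all genes that did so was not counted. Counts by role below are to be read against the shares of all genes in each line. These are 32% and 31.1% at the adjusted p alone, and 15.4% and 13.1% for 2-fold lower calls.

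Genes that rose were few. Only Srek1 was at least 2-fold higher, in both lines, where the background was 16.7% in the Tet2kd-labelled line and 14.2% in control cells. U2af1l4 was the other gene with an adjusted p under 0.05 and a higher level, in the Tet2kd-labelled line alone. Both 24 h arrays lay below both 0 h arrays, with no overlap, for 48 genes in the Tet2kd-labelled line (38.3% of all genes) and 44 in control cells (39.6%). Dividing arrays by their median in place of the 75th percentile moved the median of all genes to -0.11 in both lines. The 2-fold lower counts of members became 33 in the Tet2kd-labelled line and 18 in control cells. Over all 16151 genes such calls also rose, from 2494 to 3385 in the Tet2kd-labelled line and from 2122 to 2486 in control cells. Relative to the median of all genes, the members' median was -0.96 in the Tet2kd-labelled line and -0.75 in control cells. Both scalings shift all genes of an array alike, so these values are the same under each by construction and are no check. Quantile normalization of the processed signal, which could change them, gave -0.97 in the Tet2kd-labelled line and -0.81 in control cells.

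**Figure D1:**
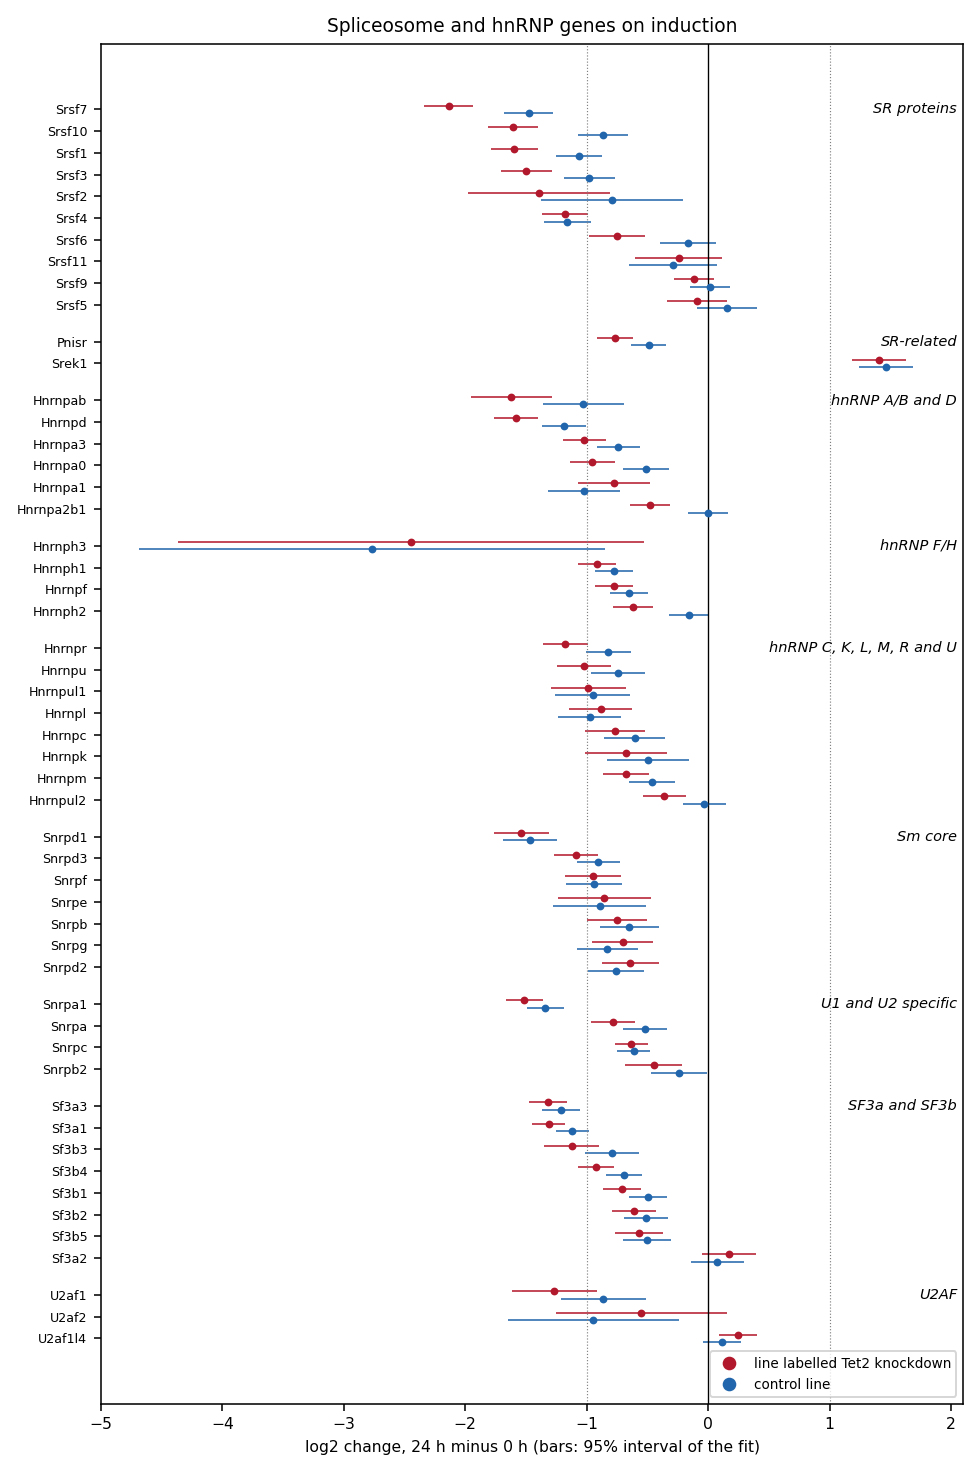
Log2 change at 24 h relative to 0 h (x axis) for the 52 tested genes, grouped by role, in the Tet2kd-labelled line (red, upper of each pair) and in control cells (blue). Points are limma estimates, bars their 95% intervals, solid line 0 and dotted lines 2-fold. Most points lie left of 0, Srek1 lies at 1.41 and 1.46, and Hnrnph3 has by far the widest intervals.

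The SR proteins held genes that fell and genes that did not pass the test. Of 10 tested genes, 7 fell in the Tet2kd-labelled line and 6 in control cells, with medians of -1.29 and -0.83, and 6 and 3 of them by at least 2-fold. Srsf12, which the array files name Srsf13b, was not well above background on any array and was not tested.

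Srsf7, an SR protein with a zinc knuckle that also takes part in mRNA export, fell furthest of them. In the Tet2kd-labelled line its arrays read 2.73 and 2.85 at 24 h, against 4.92 and 4.94 at 0 h. In control cells they read 2.998 and 3.15 at 24 h, against 4.52 and 4.59 at 0 h. The duplicates were close and the times did not overlap. The log2 changes were -2.14 ± 0.08 (SE, adjusted p = 7.4e-06 in limma) and -1.48 ± 0.08 (adjusted p = 3.2e-05), which leaves 22.7% and 35.9% of the 0 h level.

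Srsf1, also known as ASF/SF2, an activator that binds exonic enhancers, read 1.96 and 1.82 at 24 h against 3.51 and 3.46 at 0 h in the Tet2kd-labelled line. Its control arrays read 2.11 and 2.00 at 24 h against 3.14 and 3.11 at 0 h. The change was -1.60 ± 0.08 in the Tet2kd-labelled line and -1.06 ± 0.08 in control cells, with close duplicates. Srsf10, a regulator whose activity depends on its phosphorylation, read -0.49 and -0.65 at 24 h against 1.05 and 1.02 at 0 h in the Tet2kd-labelled line, and -0.20 and -0.34 at 24 h against 0.61 and 0.59 at 0 h in control cells. The changes were -1.60 ± 0.08 and -0.86 ± 0.08, with no overlap of times.

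Srsf3, a small SR protein with roles in 3′ end formation and export, read 3.33 and 3.15 at 24 h against 4.79 and 4.69 at 0 h in the Tet2kd-labelled line. In control cells it read 3.38 and 3.44 at 24 h against 4.36 and 4.42 at 0 h. Its change was -1.50 ± 0.08 in the Tet2kd-labelled line and -0.98 ± 0.08 in control cells, the control value being just short of 2-fold. Srsf4 changed by -1.18 ± 0.08 in the Tet2kd-labelled line and by -1.16 ± 0.08 in control cells. Srsf2, an exon-binding activator, fell by 1.39 ± 0.23 in the Tet2kd-labelled line and fell by 0.79 ± 0.23 in control cells. Its control 24 h arrays, 1.91 and 1.56, stood apart from each other by more than any other member's in that group. That control call was lost without any 1 of 3 control arrays, both of those at 0 h and replicate 2 at 24 h (adjusted p 0.10 to 0.13). Its second probe had closer duplicates and gave -1.49 ± 0.06 in the Tet2kd-labelled line and -0.84 ± 0.06 in control cells (adjusted p = 1e-04). By that probe the lines differed by 0.34 at 0 h (adjusted p = 0.027) and by -0.31 at 24 h (adjusted p = 0.033), and the inductions by -0.65 ± 0.09 (adjusted p = 0.013), where the probe that stands for the gene did not pass (0.27).

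Srsf6 behaved differently between its probes. The probe that stands for the gene read 3.03 and 2.85 at 24 h against 3.70 and 3.68 at 0 h in the Tet2kd-labelled line, and 3.18 and 3.003 against 3.27 and 3.24 in control cells. It fell by 0.75 ± 0.09 in the Tet2kd-labelled line, while the control value of -0.17 ± 0.09 did not pass (adjusted p = 0.17). The second probe gave -1.56 and -0.86, both with an adjusted p under 0.05. Srsf9 had values of -0.12 and 0.02 in the Tet2kd-labelled and control lines, and neither passed. The Tet2kd-labelled value passed with quantile normalization of the processed signal (-0.18, adjusted p = 0.026), with normexp and quantile (0.044) and in the deposited value table (0.039). The sign of its control value turned under 4 of 5 other normalizations. Srsf5 and Srsf11, singled out after their values were seen, also did not pass in either line, with values from -0.29 to 0.16.

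**Figure D2:**
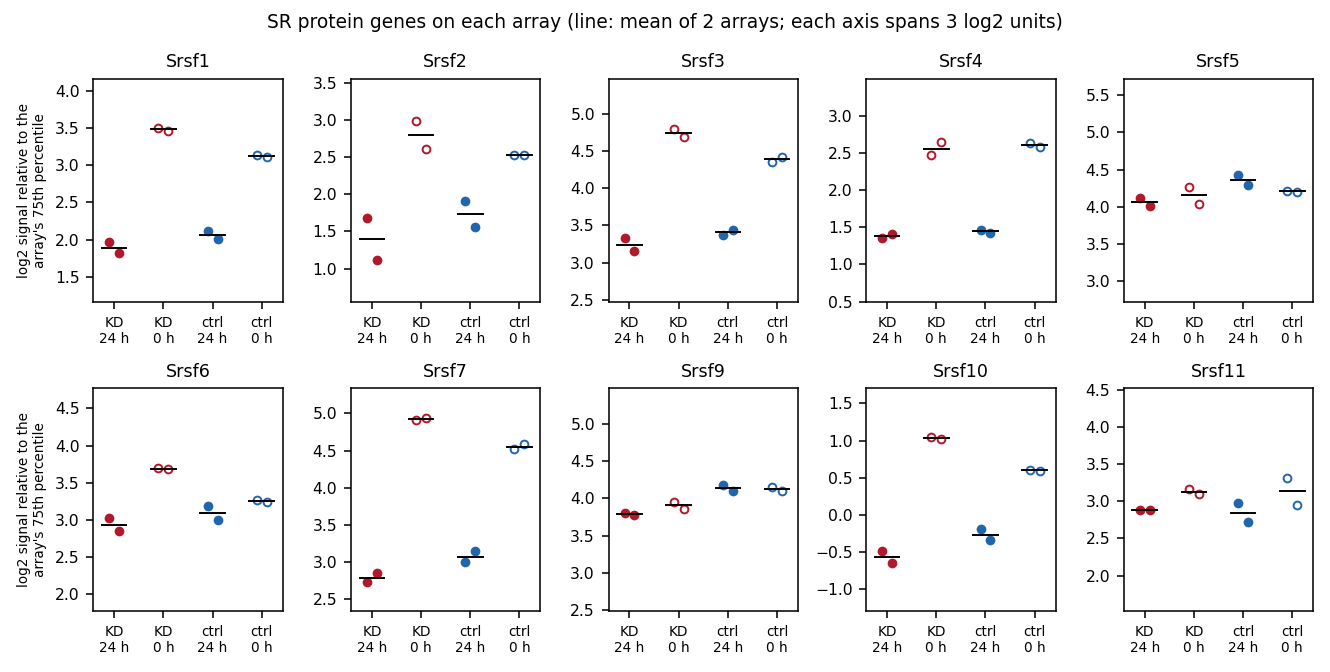
Log2 signal relative to the array's 75th percentile (y axis, 3 log2 units in every panel) of the 10 tested SR protein genes on each of the 8 arrays. Red points are the Tet2kd-labelled line (KD), blue the control line (ctrl), filled 24 h and open 0 h, and black lines mark the mean of 2 arrays. Srsf1, Srsf3, Srsf7 and Srsf10 start higher and end lower in the Tet2kd-labelled line, whereas Srsf5, Srsf9 and Srsf11 stay near one level.

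All 18 hnRNP genes fell in the Tet2kd-labelled line and 15 did in control cells, with medians of -0.90 and -0.74. At least 2-fold lower were 6 and 4 of them. Hnrnpd, known as AUF1, which binds AU-rich elements and promotes decay of their transcripts, read 3.06 and 2.96 at 24 h against 4.62 and 4.57 at 0 h in the Tet2kd-labelled line. Control arrays read 3.26 and 3.29 at 24 h against 4.53 and 4.39 at 0 h. Its changes were -1.58 ± 0.07 and -1.19 ± 0.07, and the times did not overlap in either line.

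Hnrnpab, a related RNA and DNA binding protein, fell by 1.62 ± 0.13 in the Tet2kd-labelled line and fell by 1.03 ± 0.13 in control cells. Hnrnpa1, an abundant repressor of splice sites, fell in both lines, with -0.77 ± 0.12 in the Tet2kd-labelled line and -1.02 ± 0.12 in control cells. The difference between these values did not pass (0.25 ± 0.17, adjusted p = 0.37). Its paralogue Hnrnpa2b1, a reader of sorting motifs in RNA, read 4.18 and 4.31 at 24 h against 4.73 and 4.70 at 0 h in the Tet2kd-labelled line. In control cells it read 4.48 and 4.49 at 24 h, within the 0 h readings of 4.51 and 4.45. It fell by 0.48 ± 0.07 in the Tet2kd-labelled line, and the control value was 0.00 ± 0.07, which took a negative sign under all 5 other normalizations. Hnrnpa0 fell by 0.95 ± 0.07 in the Tet2kd-labelled line and fell by 0.51 ± 0.07 in control cells.

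Among the larger hnRNP proteins, Hnrnpu, a scaffold attachment factor that binds chromatin-associated RNA, fell by 1.02 ± 0.09 in the Tet2kd-labelled line and fell by 0.74 ± 0.09 in control cells. Hnrnpl, which binds CA repeats, changed by -0.89 ± 0.10 in the Tet2kd-labelled line and by -0.98 ± 0.10 in control cells. Hnrnpc, which binds uridine tracts, changed by -0.77 ± 0.10 in the Tet2kd-labelled line and by -0.61 ± 0.10 in control cells. Hnrnpk, a poly-C binding protein, fell by 0.68 ± 0.13 in the Tet2kd-labelled line and fell by 0.50 ± 0.13 in control cells. Its control call was lost without replicate 1 at 0 h or replicate 2 at 24 h of the control line (adjusted p = 0.10 for each). Hnrnpul2 fell by 0.36 ± 0.07 in the Tet2kd-labelled line, and its control value was -0.03 ± 0.07. Hnrnph2, which binds G-runs, fell by 0.62 ± 0.07 in the Tet2kd-labelled line, and its control value was -0.16 ± 0.07 (adjusted p = 0.086).

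Hnrnph3 gave the lowest fitted values of the hnRNP genes and the least certain ones. It read -6.64 and -4.54 at 24 h against -2.47 and -3.82 at 0 h in the Tet2kd-labelled line, and -5.99 and -6.05 against -3.49 and -3.01 in control cells. No 24 h array of either line was well above background. Any 24 h signal under the lowest one well above background on its array was set to that value. The mean 24 h level was then 3.69-fold lower in the Tet2kd-labelled line and 2.69-fold lower in control cells, which was not tested. The fitted changes were -2.45 ± 0.77 (adjusted p = 0.033 in limma) and -2.77 ± 0.77 (adjusted p = 0.023). Between arrays of the same replicate number the change was -4.17 and -0.72 in the Tet2kd-labelled line, and -2.50 and -3.04 in control cells. The Tet2kd-labelled call was lost without any 1 of the 4 control arrays, and without replicate 1 at 0 h or at 24 h of its own line, where the value became -1.77 and -1.40. The control call was lost without any 1 of the 4 control arrays (adjusted p 0.055 to 0.15 over both lines). With normexp background correction and the 75th percentile the Tet2kd-labelled value was -0.69 (adjusted p = 0.11). Hnrnpll and Hnrnpdl carry older names in the array files and so missed the name rule. Hnrnpll changed by -1.03 ± 0.09 in the Tet2kd-labelled line and by -0.71 ± 0.09 in control cells, and Hnrnpdl by -1.63 ± 0.09 and by -1.19 ± 0.09.

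The Sm core genes fell in both lines. All 7 tested genes passed in each line, with medians of -0.86 in the Tet2kd-labelled line and -0.89 in control cells. Snrpd1 read 4.54 and 4.58 at 24 h against 6.21 and 5.98 at 0 h in the Tet2kd-labelled line, and 4.50 and 4.56 against 6.02 and 5.97 in control cells. It was the lowest of the Sm genes, with -1.54 ± 0.09 and -1.47 ± 0.09, which left 34.4% and 36.2% of the 0 h level. Snrpe changed by -0.86 ± 0.15 in the Tet2kd-labelled line and by -0.89 ± 0.15 in control cells, and Snrpb by -0.75 ± 0.10 and -0.65 ± 0.10. Snrpn, the Sm gene expressed mainly in neurons, had 3 probes, and none was well above background on any array.

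Of the 4 proteins specific to U1 or U2, all fell in the Tet2kd-labelled line and 3 in control cells. Snrpa1, the U2 protein A′, read 2.45 and 2.53 at 24 h against 4.03 and 3.98 at 0 h in the Tet2kd-labelled line. Control arrays read 2.59 and 2.55 at 24 h against 3.94 and 3.88 at 0 h. The changes were -1.51 ± 0.06 and -1.34 ± 0.06, and the times were far apart relative to the duplicates. Snrpa, the U1 protein A, fell less, by 0.78 ± 0.07 in the Tet2kd-labelled line and by 0.52 ± 0.07 in control cells.

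The SF3a and SF3b complexes did not fall evenly. Of 8 genes, 7 fell in each line, and the SF3a subunits included both the lowest and the highest values. Sf3a3 changed by -1.32 ± 0.06 in the Tet2kd-labelled line and by -1.21 ± 0.06 in control cells, and Sf3a1 by -1.31 ± 0.05 and -1.12 ± 0.05. Sf3a2, the remaining subunit of the same complex and singled out after its values were seen, read 3.21 and 3.35 at 24 h against 3.05 and 3.16 at 0 h in the Tet2kd-labelled line. Its values of 0.17 ± 0.09 and 0.08 ± 0.09 in the Tet2kd-labelled and control lines did not pass, the first of which did with the replicate block. Sf3b1, the largest SF3b subunit and a gene often mutated in myeloid neoplasms, fell by 0.71 ± 0.06 in the Tet2kd-labelled line and fell by 0.50 ± 0.06 in control cells.

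U2AF reads the polypyrimidine tract through U2af2 and the terminal AG through U2af1. U2af1 fell by 1.27 ± 0.14 in the Tet2kd-labelled line and fell by 0.86 ± 0.14 in control cells. U2af2 read 0.31 and 0.16 at 24 h against 0.62 and 0.96 at 0 h in the Tet2kd-labelled line, a value of -0.55 ± 0.28 that did not pass (adjusted p = 0.13). It passed without either control 0 h array (adjusted p = 0.029 for each) and when only the Tet2kd-labelled arrays were fitted (0.046). It read -0.11 and -0.30 at 24 h against 1.15 and 0.34 at 0 h in control cells, a fall of 0.95 ± 0.28. The control 0 h duplicates differed by 0.81, more than any other member's in that group. Without replicate 1 at 0 h of the control line the value was -0.54 (adjusted p = 0.067), and leaving out either control 24 h array or either Tet2kd-labelled 24 h array also ended the control call (0.052 to 0.12). With no filter on dim probes, which tests more genes, the control calls of U2af2, Srsf2, Hnrnpk and Hnrnph3 and the Tet2kd-labelled calls of U2af1l4 and Hnrnph3 did not pass (adjusted p 0.061 to 0.12). Those of U2af2, U2af1l4 and Tet2kd-labelled Hnrnph3 also did not pass when only the groups compared were fitted (0.064 to 0.095), nor did the control call of Hnrnpk under median scaling (0.087).

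U2af1l4, a relative of U2af1 that can take its place in the heterodimer, had 2 probes that disagreed in sign. They are shown because they read different stretches of the gene on mouse build mm9 chromosome 7. The probe that stands for the gene lies at chr7:31350322-31350381, and the other spans 155 bases at chr7:31349607-31349761 for its 60 bases, so it crosses a gap of 95 bases.
A_55_P2138090: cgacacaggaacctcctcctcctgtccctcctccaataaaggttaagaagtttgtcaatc
A_51_P509140: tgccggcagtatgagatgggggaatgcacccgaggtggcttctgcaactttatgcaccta
The probe that stands for the gene gave 0.24 ± 0.06 in the Tet2kd-labelled line (adjusted p = 0.015) and 0.11 ± 0.06 in control cells. The other gave -0.30 and -0.47, of which the control value passed (adjusted p = 0.019). The mean of both probes was -0.03 in the Tet2kd-labelled line and -0.18 in control cells, so the direction for the gene depends on the probe. Without replicate 1 at 0 h or replicate 2 at 24 h of the Tet2kd-labelled line, the rise no longer passed (adjusted p 0.067 and 0.077).

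Srek1, an SR-related protein that the array files name Srsf12, was the lone gene called higher. It read 5.13 and 5.23 at 24 h against 3.70 and 3.84 at 0 h in the Tet2kd-labelled line, and 5.14 and 5.30 against 3.71 and 3.80 in control cells. The rise was 1.41 ± 0.09 in the Tet2kd-labelled line and 1.46 ± 0.09 in control cells. Pnisr, the other SR-related gene and named after its values were seen, fell by 0.77 ± 0.06 in the Tet2kd-labelled line and fell by 0.49 ± 0.06 in control cells. The 1 probe of Srek1, at chr13:104531985-104532044 on mm9, is shown because of its end, where the longest alternating run of T and G is in capitals.
A_55_P1966372: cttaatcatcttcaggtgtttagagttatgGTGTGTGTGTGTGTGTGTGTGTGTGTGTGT
The run covers 30 of 60 bases. A check chosen after this sequence was seen took every tested gene whose probe holds such a run of at least 20 bases, 51 genes with Srek1. All 51 were called at least 2-fold higher in both inductions, with values from 1.08 to 1.74 in the Tet2kd-labelled line and from 1.14 to 1.81 in control cells. Their medians, 1.39 and 1.44, lie close to the values of Srek1. Among 105 genes with a run of at least 12 bases, 85 were called higher in the Tet2kd-labelled line and 87 in control cells. The next longest run in a member probe, 11 bases, belonged to Snrpa, which fell. With these probes left out, no member was called higher in either line, and 19 and 11 were still called lower. Whether the signal of this probe came from Srek1 transcripts was not tested.

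**Figure D3:**
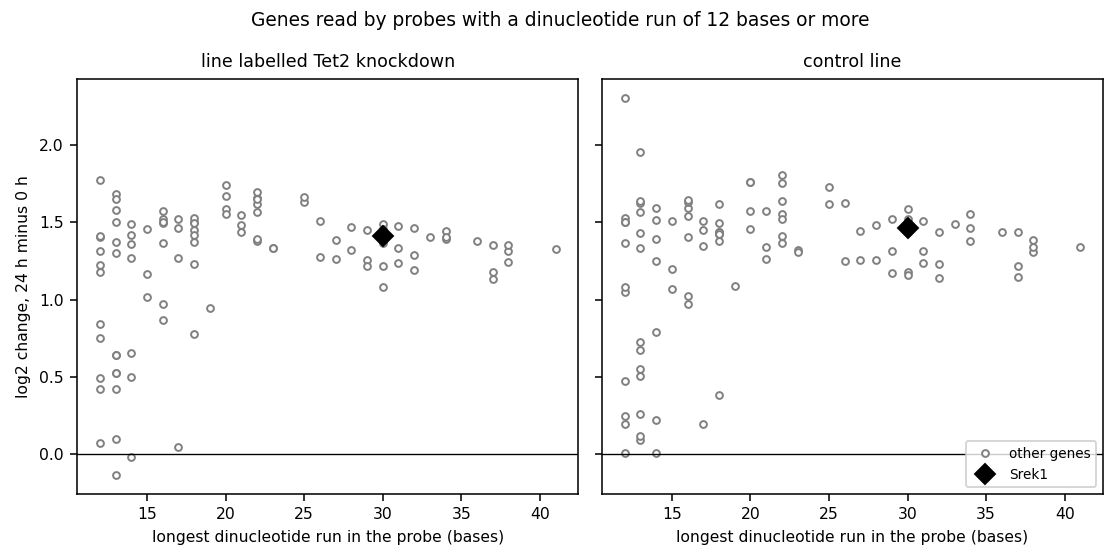
Log2 change at 24 h relative to 0 h (y axis) against the length in bases of the longest alternating T and G run in the probe (x axis), for the 105 tested genes with a run of at least 12 bases, in the Tet2kd-labelled line (left) and control cells (right). The diamond is Srek1. All genes with a run of 20 bases or more lie above 1, whatever the length, while genes with shorter runs reach down to about 0 and below.

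A total of 24 member genes had several probes above background. In 23 of them all probes shared 1 sign in each induction, U2af1l4 being the exception. Sizes differed more than signs, as with Srsf7, whose second probe gave -2.18 in the Tet2kd-labelled line and -2.11 in control cells.

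**Figure D4:**
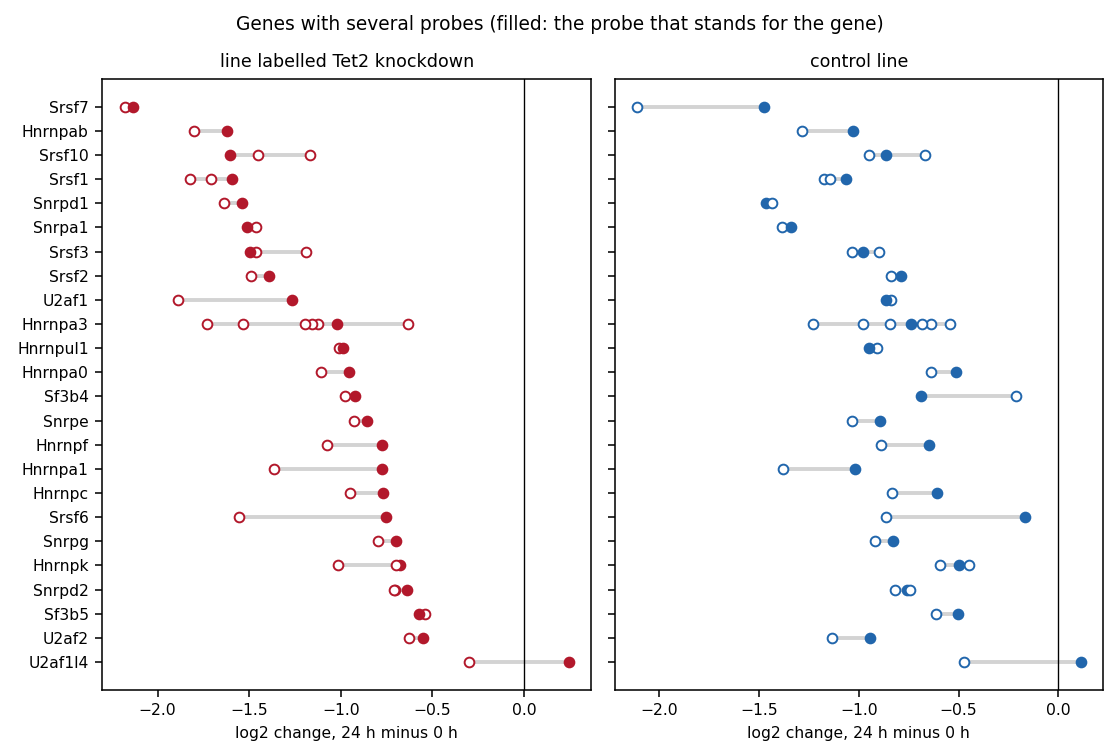
Log2 change at 24 h relative to 0 h (x axis) of each probe of the 24 genes with several probes above background, in the Tet2kd-labelled line (left, red) and control cells (right, blue). Filled points are the probes that stand for the gene, open points the others, and grey bars join probes of a gene. U2af1l4 is the gene whose probes lie on both sides of 0, and Hnrnpa3, Srsf6 and Srsf7 have widely separated probes in control cells.

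The second question was whether the lines differed at a given time. No member differed by 2-fold with an adjusted p under 0.05 at 0 h, where 1.72% of all genes did, or at 24 h, where 2.04% did. Before induction the Tet2kd-labelled line tended higher, with a median difference of 0.11 against 0.00 over all genes. At an unadjusted p under 0.05 there were 15 higher and 1 lower of 52, against 15.3% of all genes in each direction. With the adjusted p alone 6 genes were higher in limma, against 5.91% of all genes, and none was lower, against 7.56%. With the replicate number, which is the slide, as a block 12 were higher (11.2% of all genes) and 1 was lower, Srsf9 (12.8%).

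These were Hnrnpa0, Srsf10, Srsf6, Srsf7, Srsf1 and, named after its value was seen, Hnrnpr. Hnrnpa0 read 4.63 and 4.59 in the Tet2kd-labelled line at 0 h, against 4.06 and 4.18 in control cells, a difference of 0.49 ± 0.07 (adjusted p = 0.015). The differences were 0.44 ± 0.08 for Srsf10, 0.43 ± 0.09 for Srsf6, 0.38 ± 0.08 for Srsf7 and 0.36 ± 0.08 for Srsf1, which is 128.5% to 135.6% of control. The other probe of Hnrnpa0 gave 0.21 ± 0.17 (adjusted p = 0.48) and the other probe of Srsf7 gave 0.14 ± 0.09 (adjusted p = 0.36). Those of Srsf10 gave 0.23 (adjusted p = 0.19) and 0.64 (adjusted p = 0.021), while the other probes of Srsf1 and Srsf6 gave 0.50 to 0.54 and passed. These 5 genes were among the 33 of 52 members whose arrays did not overlap between the lines at 0 h (57.1% of all genes). Of 20 other settings, the call was lost in 14 each for Srsf1 and Srsf6, 12 for Srsf7, 8 for Hnrnpa0 and 7 for Srsf10. All 5 named calls were lost under median scaling, with no filter on dim probes, and when only the 0 h groups were fitted (adjusted p 0.081 to 0.53). They were also lost without any 1 of the 4 arrays at 0 h, and those of Srsf1, Srsf6 and Srsf7 without any 1 of the 4 arrays at 24 h (adjusted p 0.051 to 0.15).

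At 24 h the signs leaned the other way, with a median of -0.06 against 0.04 over all genes. At an unadjusted p under 0.05 there were 10 lower, against 13.6% of all genes, and 2 higher, against 17.7%. At the adjusted p alone there were 2 lower, against 6.45% of all genes, and 0 higher, against 7.39%. With the replicate block 9 were lower (10.5% of all genes) and 1 was higher, U2af1l4 (15.9%). Srsf9 read 3.80 and 3.78 in the Tet2kd-labelled line at 24 h, against 4.18 and 4.10 in control cells, a difference of -0.35 ± 0.07 (adjusted p = 0.026). It was also at 85.9% of control at 0 h, a difference of -0.22 ± 0.07 that did not pass (adjusted p = 0.085). Hnrnph2 differed by -0.29 ± 0.07 at 24 h (adjusted p = 0.043). Of 20 other settings, the call of Srsf9 was lost in 9 and that of Hnrnph2 in 12. Both calls were lost under median scaling, with no filter on dim probes, and when only the 24 h groups were fitted (adjusted p 0.081 to 0.64). That of Srsf9 was also lost without any 1 array other than the 2 of the Tet2kd-labelled line at 0 h, and that of Hnrnph2 without any 1 of the 8 arrays (adjusted p 0.051 to 0.17). The lines' arrays did not overlap for 29 members at 24 h (59.7% of all genes). The next smallest p-values belonged to Hnrnpul2 (-0.28 ± 0.07), Srsf10 (-0.30 ± 0.08) and Hnrnpa2b1 (-0.24 ± 0.07), with adjusted p of 0.058, 0.069 and 0.069. With the replicate block Hnrnpul2 and Srsf10 passed (adjusted p 0.039 and 0.028), and Hnrnpul2 also passed when probes had to be well above background on all arrays (0.043).

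The third question was whether induction changed the genes by a different amount in the 2 lines, tested as the change in the Tet2kd-labelled line minus the change in control cells. No member passed at 2-fold, where 3.82% of all genes did. At the adjusted p alone 8 of 52 genes passed, all with a lower value in the Tet2kd-labelled line, against 7.05% of all genes in that direction and 16.3% in both. At an unadjusted p under 0.05 there were 18, all negative, against 15% of all genes in that direction and 18.4% in the other. With the replicate block 13 passed at the adjusted p, all negative and the 8 among them, against 11.9% of all genes in that direction. The median difference was -0.18, against 0.05 over all genes.

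Of these 8 genes, 5 were SR proteins. Srsf10 had the lowest difference, -0.74 ± 0.12 (adjusted p = 0.017 in limma), followed by Srsf7 with -0.66 ± 0.11, Srsf6 with -0.59 ± 0.13, Srsf1 with -0.53 ± 0.11 and Srsf3 with -0.52 ± 0.12. The other 3 genes were Hnrnpa2b1, Hnrnph2 and Hnrnpa0, with differences of -0.48, -0.46 and -0.44. For 6 of the 8 genes, Srsf10, Srsf1, Srsf3, Srsf7, Hnrnpa2b1 and Hnrnph2, both Tet2kd-labelled arrays read above both control arrays at 0 h and below both at 24 h. Of these 6, the difference at 24 h passed for Hnrnph2 alone (adjusted p 0.069 to 0.25 for the other 5), and that at 0 h did not pass for Srsf3 (0.051), Hnrnpa2b1 (0.073) or Hnrnph2 (0.15). The 8 genes were picked by the difference between the inductions, and a negative one favours reading above control at 0 h and below it at 24 h. The share of all genes with this pattern was not counted. The Sm core stood at a median of -0.01, with 0 of 7 genes passing and 0 at an unadjusted p under 0.05, while the SR proteins stood at -0.52 with 5 of 10. Whether these medians differ was not tested.

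The 8 differences kept their sign in every setting tried, and within each of the 2 slides, where Srsf10 gave -0.74 and -0.74 and Srsf7 gave -0.67 and -0.65. The 8 genes were picked on these same arrays, so the likeness of the slides is no separate support. Their calls were less firm. All 8 were lost under median scaling (adjusted p 0.26 to 0.47) and with no filter on dim probes. With normexp and the 75th percentile all but Srsf10 and Srsf7 were lost (0.053 to 0.089). Those of Srsf1, Srsf3, Srsf6 and Hnrnpa0 were also lost with normexp and quantile normalization and in the deposited value table (0.06 to 0.096), and that of Hnrnpa0 with quantile normalization of the processed signal and over the mean of its probes (0.054 and 0.073). Leaving out single arrays ended 6 of the 8 calls whichever of the 8 arrays was left out, ended that of Srsf10 for 5 arrays and that of Srsf7 for 7 arrays (adjusted p 0.038 to 0.13 over the 8 genes). The second probe of Srsf7 gave -0.07 (adjusted p = 0.76), so that difference rests on 1 probe. For Srsf1 all 3 probes passed, with -0.53, -0.53 and -0.68, and for Srsf6 both passed, with -0.59 and -0.69. The other probe of Hnrnpa0 gave -0.47 ± 0.24 and did not pass (adjusted p = 0.24). The other probes of Srsf10 gave -0.50 each, and those of Srsf3 gave -0.43 and -0.29, with adjusted p from 0.059 to 0.10. Outside the 8 genes, probes that do not stand for their gene also passed, besides that of Srsf2. Singled out after their values were seen, they gave -0.76 for Sf3b4 (adjusted p = 0.03), -0.52 for Hnrnpab (0.028), and -0.49 and -0.47 for Hnrnpa3 (0.046 and 0.028). The probes that stand for these genes did not pass (0.12, 0.09 and 0.11), nor did the remaining probes of Hnrnpa3.

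**Figure D5:**
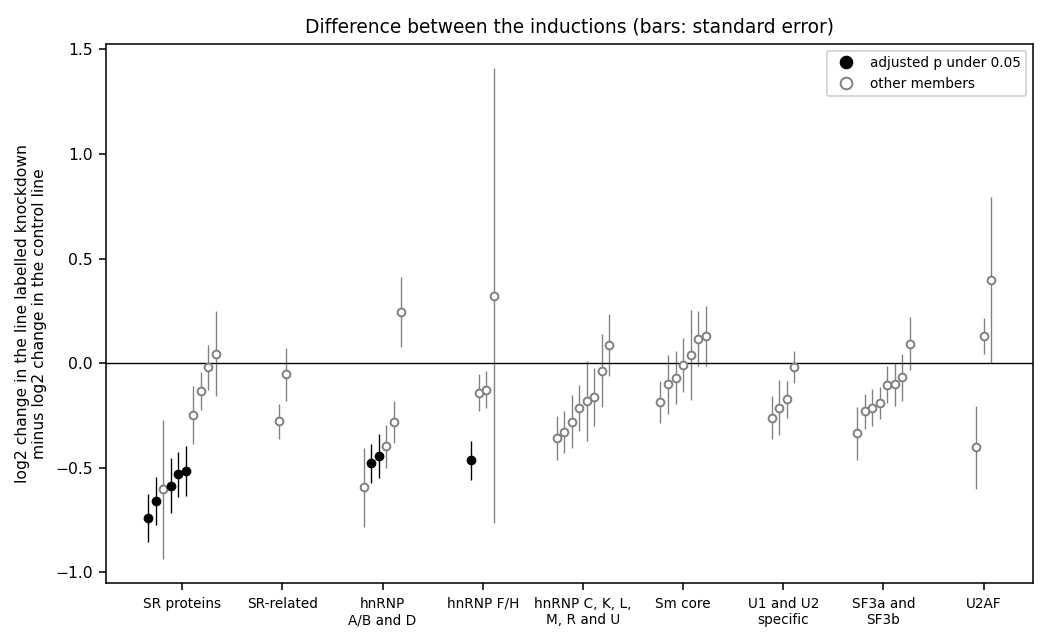
Difference between the inductions, the log2 change in the Tet2kd-labelled line minus that in control cells (y axis), for the 52 tested genes by role (x axis). Points are limma estimates, bars standard errors, and filled points have an adjusted p under 0.05. The 8 filled points are all below 0 and lie among the SR proteins, hnRNP A/B and D, and hnRNP F/H, while the Sm core lies around 0.

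Splicing genes outside the name rule were counted in 6 lists, to be read against the backgrounds of 32% in the Tet2kd-labelled line and 31.1% in control cells for a lower level at the adjusted p alone, and of 15.4% and 13.1% for 2-fold lower calls. Of 37 tested genes of the U5 and tri-snRNP particles, the Lsm ring and the Prp19 complex, 33 were lower at the adjusted p in the Tet2kd-labelled line and 32 in control cells, 15 and 11 of them by 2-fold, and 0 were higher in either. Of 41 other splicing regulators 31 were lower in the Tet2kd-labelled line and 29 in control cells, 17 and 10 by 2-fold, and 4 were higher in each. Among 17 snRNP assembly factors 14 were lower in the Tet2kd-labelled line and 12 in control cells, 9 and 8 by 2-fold, with medians of -1.09 and -0.72. Of 13 genes of the exon junction complex and nonsense-mediated decay 12 and 9 were lower, 3 and 1 by 2-fold, and of 22 helicases and step factors 13 and 12 were lower, 5 and 1 by 2-fold. The control 2-fold counts of these last lists, 1 of 13 and 1 of 22, were below the background share. Of the 11 SR protein kinases and importers 5 were lower in each line, 2 and 1 by 2-fold, and 3 were higher in the Tet2kd-labelled line and 2 in control cells. The higher counts of all these lists are to be read against 36.2% of all genes in the Tet2kd-labelled line and 30.7% in control cells.

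Gemin6 and Gemin2, parts of the SMN complex that loads Sm rings onto small nuclear RNA, were the lowest of all these lists. Gemin6 changed by -2.73 ± 0.07 in the Tet2kd-labelled line and by -2.46 ± 0.07 in control cells, and Gemin2 by -2.52 ± 0.22 and -2.01 ± 0.22. Mbnl3 changed by -2.31 ± 0.14 and -1.88 ± 0.14 in the Tet2kd-labelled and control lines, while its relative Mbnl1 rose by 1.50 ± 0.10 and 1.39 ± 0.10, so the muscleblind splicing regulators moved in opposite directions. Mbnl2 rose by 1.16 ± 0.08 in the Tet2kd-labelled line and by 0.95 ± 0.08 in control cells, and the SR kinase Srpk3 by 1.25 ± 0.06 and 0.66 ± 0.06. The probes of these 6 genes held alternating T and G runs of at most 9 bases.

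Promoters from RefSeq (GRCm38.p6, 250 bases before to 50 after the start) were found for 47 of the 54 genes, 65 promoters in all. They were searched on both strands for 4 sets of letters, none of which contains another, although CCAAT and TTGCNNAA can share letters at their ends. CCGGAAG, the core read by ETS factors, was in 21 of 65 promoters (32.3%), against 8.86% of all 32851 promoters. CCAAT was in 46.2% against 37.4%, CACGTG in 10.8% against 7.15%, and TTGCNNAA, a form of the C/EBP site, in 12.3% against 10.8%. The promoters of the 2 genes with the lowest difference between the inductions are printed with the match in capitals, CCAAT for Srsf10 at chr4:135855821-135856120 on the plus strand and CCGGAAG for Srsf7 at chr17:80207256-80207555 on the minus strand. The promoter of Srsf6, the next lowest, held none of the 4 sets and is not printed.
Srsf10: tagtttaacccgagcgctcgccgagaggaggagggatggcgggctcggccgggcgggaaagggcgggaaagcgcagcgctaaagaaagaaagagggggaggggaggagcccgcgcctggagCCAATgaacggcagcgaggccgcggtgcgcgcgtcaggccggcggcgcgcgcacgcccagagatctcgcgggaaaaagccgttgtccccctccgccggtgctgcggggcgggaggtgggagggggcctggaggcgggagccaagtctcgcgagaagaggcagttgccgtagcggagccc
Srsf7: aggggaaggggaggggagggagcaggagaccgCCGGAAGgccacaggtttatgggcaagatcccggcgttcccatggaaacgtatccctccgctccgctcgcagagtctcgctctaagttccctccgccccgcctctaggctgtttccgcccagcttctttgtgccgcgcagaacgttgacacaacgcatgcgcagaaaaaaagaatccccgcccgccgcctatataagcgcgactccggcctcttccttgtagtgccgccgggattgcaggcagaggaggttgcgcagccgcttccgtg
A match describes letters in this window and is no evidence of binding.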

How the data were processed

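Expression was measured on 8 Agilent 1-colour mouse arrays (design 026655, annotated on mm9), scanned with Feature Extraction 10.7.3.1, per the file headers. Per the labels, total RNA was amplified from an oligo-dT primer and labelled with Cy3. The deposited scanner files hold the processed, mean and background intensity of each spot. The deposited value table holds log2 values, equal in distribution across arrays, with a median of 6.84 in every column. It matched normexp (offset 50) with quantile normalization of the scanner files with r of at least 0.999999, its centring otherwise being unstated, and the submitters' processing notes name limma.

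Each processed signal was divided by its array's 75th percentile (722 to 1435 units) and taken to log2, with 155 to 219 outlier spots per array left out and none saturated. Probes well above background on both duplicates of any group were kept (20304 probes), and each gene was read by its brightest kept probe on average. limma 3.58.1 in R 4.3.3 was fitted to 4 group means (4 residual and 1.51 prior degrees of freedom), 2-sided, with Benjamini-Hochberg adjustment over 16151 genes. A gene was called at an adjusted p under 0.05 and 2-fold. Errors are standard errors of the fit, n = 2 arrays per group, and the number of arrays limits precision. The script was tested on simulated data.

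Replicate numbers equal the slide in the file headers, and same-numbered arrays deviated together (r from 0.298 to 0.413 over 6 pairs of groups), so the replicate block is the slide. Named genes were 20 fixed members and Hnrnpll, the 8 highest and 8 lowest passing genes per induction, the 5 smallest p per line comparison and interaction, and genes without a kept probe. For the other lists they were the 3 highest and 3 lowest called per induction. Members and lists were chosen with earlier results of these data known. Names follow RefSeq, which differs from the files for 3 members. Scaling, background correction, filter, probe choice, block, samples fitted and single arrays were varied. Exon positions of probes were not used here.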

Additional observations from a re-analysis of the deposited data

Results flagged for a closer look

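The induction of 8 member genes differed between the lines by a test of the difference itself (limma, adjusted p under 0.05 over all genes), as the change in the Tet2kd-labelled line minus that in control cells. The values were -0.74 for Srsf10 (adjusted p = 0.017), -0.66 for Srsf7 (0.021), -0.59 for Srsf6 (0.038), -0.53 for Srsf1 (0.031), -0.52 for Srsf3 (0.042), -0.48 for Hnrnpa2b1 (0.028), -0.46 for Hnrnph2 (0.03) and -0.44 for Hnrnpa0 (0.045). None reached 2-fold, all 8 calls were lost under median scaling, and the difference in the Tet2 transcript between the lines did not pass the test.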

How the results depend on the processing

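The counts of members called at least 2-fold lower were 19 in the Tet2kd-labelled line and 11 in control cells. Median scaling raised these member counts to 33 and 18, while such calls over all 16151 genes rose from 2494 to 3385 and from 2122 to 2486. Dropping the minimum fold raised the member counts to 45 and 41, against 32% and 31.1% of all genes. Dropping it also gave 2 members higher in the Tet2kd-labelled line, 6 different between the lines at 0 h, 2 at 24 h and 8 between the inductions. Leaving out probes with an alternating T and G run, a choice made after seeing the data, left 0 members higher in either line. With the replicate block, which is the slide, the counts were 19 lower and 1 higher in the Tet2kd-labelled line, 11 lower and 1 higher in control cells, and 0 for the other 3 comparisons, and it changed none of these 2-fold counts. At the adjusted p alone it gave 13 members different between the lines at 0 h, 10 at 24 h and 13 between the inductions. Leaving out 1 array at a time, with the lone array assumed to vary like the others, gave 16 to 21 lower in the Tet2kd-labelled line and 9 to 12 in control cells, 1 higher in each, and 0 to 0 for the other 3 comparisons.

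Over the named genes 1398 values kept their direction and side of the threshold under an alternative, 201 no longer passed, 11 newly passed and 18 changed sign, the cause of which was not tested. Hnrnpa2b1 in control cells (0.00) became -0.105 with median scaling, -0.112 with quantile normalization, -0.012 with normexp and the 75th percentile, -0.132 with normexp and quantile, and -0.12 in the deposited value table. Srsf9 in control cells (0.02) became -0.0919 with median scaling, -0.046 with quantile normalization, -0.011 with normexp and quantile, and -0.0155 in the value table. Leaving out 1 array, Hnrnpa2b1 ranged over -0.0257 to 0.0296, Hnrnpul2 (-0.03) over -0.0759 to 0.0120 and Srsf9 over -0.0243 to 0.0554 in control cells. U2af1l4 became -0.00711 with median scaling and -0.0281 over the mean of its probes in the Tet2kd-labelled line, and -0.18 over that mean and -0.47 by its other probe in control cells. Duplicates show no culture-to-culture spread, and with a median standard error of 0.10 for an induction and 0.14 for the difference between inductions, small differences were not detectable.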
